A study of Mus musculus with 18 samples.

Results

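Red blood cell genes were followed through mouse ovaries exposed to an excess of luteinizing hormone (LH): Hba-a1 and Hbb-b2, which encode an alpha and a beta chain of adult haemoglobin, Alas2, and Bpgm. There were 4 such genes. The platform annotation assigned 7 of the 13179 probe sets on the 2 chip types, A and B, to these 4 genes. Chip B carried 2 probe sets for Hba-a1 and 1 each for Hbb-b2, Alas2 and Bpgm, and chip A carried 2 probe sets annotated to both Hba-a1 and its near copy Hba-a2. The genes had been picked for how they stood in the transgenic, cystic and tumour samples, so those levels and contrasts are given below as a description, without a test.

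Whole ovaries had been profiled from wild-type mice and from LHCTP transgenic mice, which hypersecrete LH. In the published LHCTP line the transgene is a chimeric LH beta subunit made in the pituitary, so that the ovary responds to the hormone and is not itself the site of the transgene. The wild-type groups were CF-1 and CF-1xC57BL/6 hybrid mice of 2 and 5 months. The transgenic groups were the CF-1 and the hybrid of 2 months, both described as cystic, the CF-1 of 5 months with a granulosa cell tumour, the hybrid of 5 months with a luteoma, and a CF-1 of 5 months treated with human chorionic gonadotropin (hCG), an agonist of the LH receptor, also described as a luteoma. Each of these 9 conditions had 1 array of each chip type, 18 arrays in all, and the labels do not say how many animals stood behind a sample. For the tumour's chip B array the description gives the age as 2 months, while title and source give 5 months, which was followed. Chip B holds the Alas2, Bpgm and Hbb-b2 values and also Hba-a1 probe sets, so this discrepancy touches all 4 genes.

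Haemoglobin is a tetramer of alpha and beta chains, each with a heme group, and its messenger RNA fills the late red cell precursor and lingers in the reticulocyte. Alas2 is the red-cell form of 5-aminolevulinate synthase, the first and limiting enzyme of heme synthesis, while Alas1 is the form of all other tissues and also supplies heme to the cytochrome P450 enzymes of steroid-making cells. Bpgm, a bisphosphoglycerate mutase, branches from glycolysis to make 2,3-bisphosphoglycerate, which lowers the oxygen affinity of haemoglobin, and it is abundant in red cells and in placenta. Adult ovaries make no red cells, but the blood in them brings such transcripts. The part of blood in the levels below was not tested. In a whole ovary, more cells of a type and more RNA per cell cannot be told apart.

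The stretches of 250 bases ahead of the RefSeq start sites (build GRCm38.p6) are shown for 3 genes, which differ in letters that red cell promoters are known for. Capitals mark GATA matches, CACCC and CCAAT, all searched on both strands, and TATAA, searched on the strand of the gene. A GATA match was NGATAN with A or T as its first letter and A or G as its last. No matches of different kinds overlapped.
Hba-a1, chr11:32283422-32283671, plus strand: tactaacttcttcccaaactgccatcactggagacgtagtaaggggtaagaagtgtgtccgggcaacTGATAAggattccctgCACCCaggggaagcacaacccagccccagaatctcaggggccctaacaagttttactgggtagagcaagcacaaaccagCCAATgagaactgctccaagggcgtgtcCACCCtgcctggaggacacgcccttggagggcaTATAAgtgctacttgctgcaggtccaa
Alas2, chrX:150547167-150547416, plus strand: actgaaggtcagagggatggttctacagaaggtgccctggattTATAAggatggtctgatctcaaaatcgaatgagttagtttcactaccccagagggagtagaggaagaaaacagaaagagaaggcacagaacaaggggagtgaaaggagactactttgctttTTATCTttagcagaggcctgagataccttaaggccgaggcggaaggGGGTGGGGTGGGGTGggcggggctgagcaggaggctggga
Bpgm, chr6:34476106-34476355, plus strand: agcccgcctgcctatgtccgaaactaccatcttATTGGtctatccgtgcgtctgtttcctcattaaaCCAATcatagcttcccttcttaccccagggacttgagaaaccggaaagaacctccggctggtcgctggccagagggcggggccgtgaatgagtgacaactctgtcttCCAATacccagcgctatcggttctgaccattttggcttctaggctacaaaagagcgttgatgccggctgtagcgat
The Hba-a1 stretch held 1 GATA match, 2 CACCC, 1 CCAAT and 1 TATAA, the last of them 27 to 23 bases ahead of the start. Alas2 held 1 GATA match, 86 to 81 bases ahead and on the opposite strand, then 3 CACCC in a row on the opposite strand, and 1 TATAA far upstream. Bpgm held 3 CCAAT matches, and no GATA, CACCC or TATAA letters were in this window. Of 32851 promoters of the same length, 26.5% held a GATA match, 52% CACCC, 33.8% CCAAT and 16% TATAA, and 2.13% held GATA, CACCC and TATAA together, as Hba-a1 and Alas2 did. The beta globin gene Hbb-bt held no GATA match either, while the beta globin gene Hbb-bs and the alpha globin gene Hba-a2 held 1 each. A match is only a run of letters and says nothing on whether a factor was bound. No link between these letters and the levels in the ovaries was tested.

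Intensities were scaled to a common level within each chip type and are given in units. Values under a floor of 184 units on chip A or 291 on chip B were set to that floor before log2 was taken, and the detection limit was 2 floors, 368 and 581 units. Of the 6408 probe sets that reached the limit on at least 2 of 9 arrays, 6 were of these genes. The second Hba-a1 probe set of chip B stayed under the limit on every array, from -40.2 to 489 units, and was not tested. Bpgm passed through 2 arrays, and Alas2 passed only through its transgenic arrays, so that for both genes the filter itself asked for a high array.

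Unscaled, the arrays had trimmed means of 907 to 1756 units (chip A) and 542 to 921 (chip B). Inha, a granulosa cell gene, was bright in every sample, at 10402 to 25616 units. The tumour stood apart, with 16047 units of the granulosa enzyme Hsd17b1, at most 5765 elsewhere, and 188 units of Star, a cholesterol carrier of luteal and theca cells, which read at least 11263 in every other sample.

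Alas2 was higher in every transgenic ovary than in every wild type. The wild types averaged 390 ± 95.8 units (SD, n = 4), at 461 (CF-1) and 485 (hybrid) when 2 months old, and 309.6 (CF-1) and 306 (hybrid) when 5 months old. In the transgenic ovaries it read 1561 units in the CF-1 cystic, 2443 in the hybrid cystic, 798 in the tumour, 2081 in the hybrid luteoma and 1576 in the hCG-treated ovary. All 5 transgenic arrays stood above all 4 wild-type arrays, the lowest being the tumour. Only 0.89% of the probe sets tested had this order, and since Alas2 was chosen on it nothing is read from that share.

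Within the pairs of one strain and age, the Alas2 log2 difference was 1.76 for the CF-1 cystic ovary, 1.37 for the tumour, 2.33 for the hybrid cystic ovary and 2.76 for the hybrid luteoma. The hCG-treated ovary stood 2.35 above the CF-1 wild type of 5 months, the same array that served the tumour. All wild-type values lay between the floor and the detection limit. Taken against that limit, the cystic ovaries were at least 2.68-fold (CF-1) and 4.20-fold (hybrid) higher, the luteoma at least 3.58-fold, the hCG-treated ovary at least 2.71-fold and the tumour at least 1.37-fold. The separation held under quantile normalization, median scaling and with the values as deposited, where the highest wild-type array read 564 and the lowest transgenic array 976 units.

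The place of Alas2 among the probe sets of its own array gave the same picture without any scaling. Between 31.2% and 41.1% of the chip B probe sets were brighter than Alas2 in the wild-type ovaries. In the cystic, luteoma and hCG-treated ovaries 9.96% to 14.2% were brighter, and in the tumour 24.0%. In the order of levels, given as a description, the CF-1 cystic ovary stood 0.97 above the tumour on the log2 scale, and the tumour 0.72 above the hybrid wild type of 2 months, which was under the detection limit. The hCG-treated and CF-1 cystic ovaries were 0.01 apart, less than the residual SD of 0.40.

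**Figure D1:**
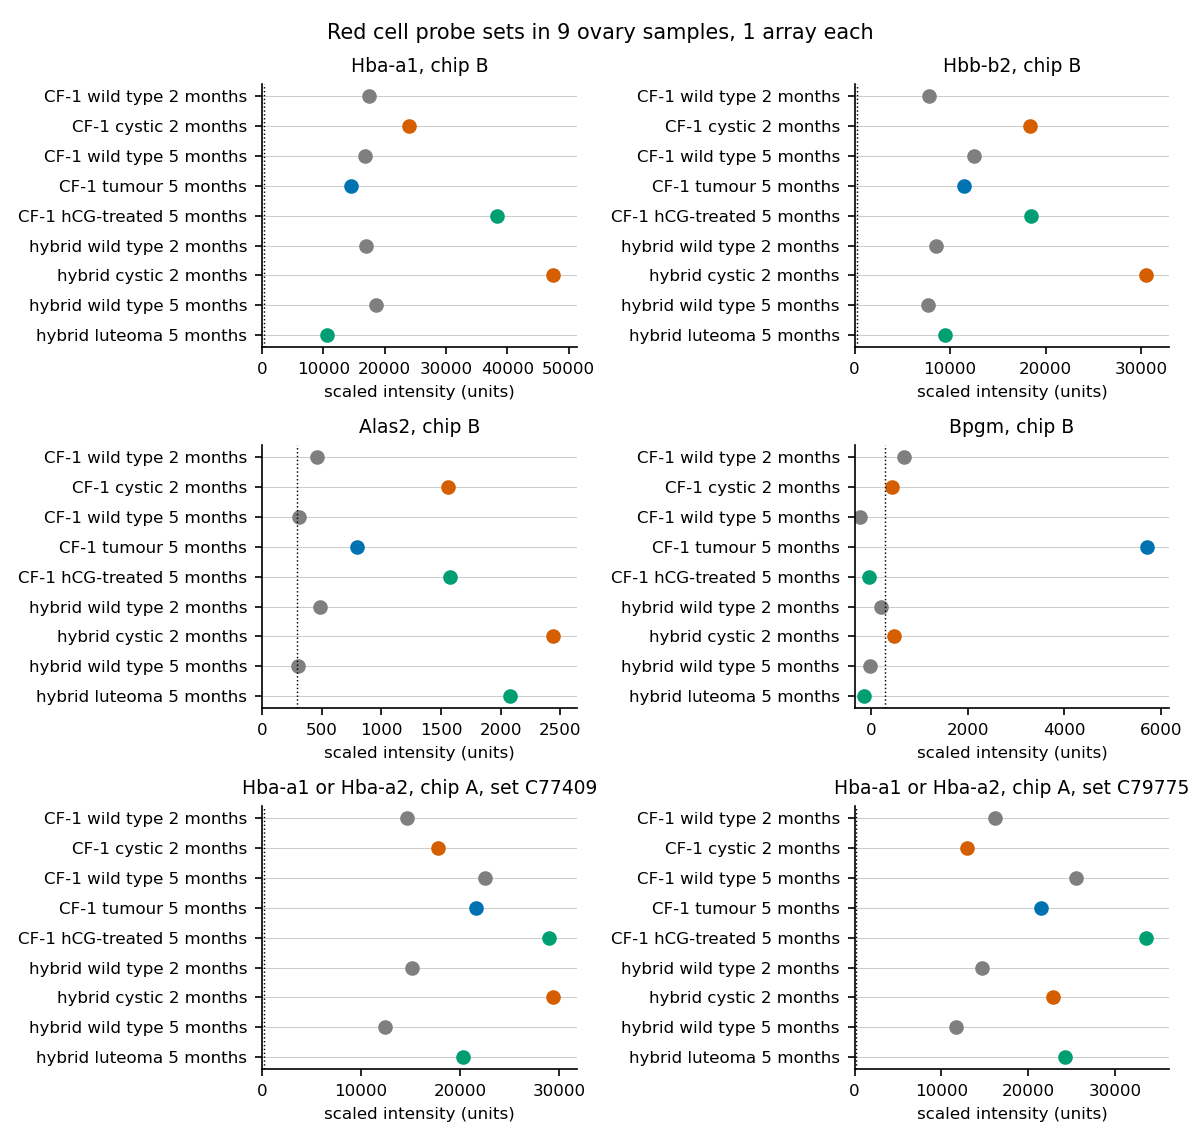
Scaled intensity in units (horizontal axis, linear) of the 6 probe sets tested in each of the 9 conditions, 1 array a point, with wild type in grey, cystic in orange, tumour in blue and luteoma or hCG-treated in green, and the floor as a dotted line. Alas2 is above every wild-type array in the 5 transgenic ones, both globins of chip B are highest in the cystic and hCG-treated ovaries, and Bpgm reaches 5718 units in the tumour alone.

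Hbb-b2 shared high levels with Alas2 in the cystic and hCG-treated ovaries, but not in the luteoma or the tumour. Its probe set read 7780, 12491, 8538 and 7685 units in the wild types (CF-1 of 2 and 5 months, then hybrid of 2 and 5 months), 9123 ± 2277 on average (SD, n = 4). The cystic ovaries read 18318 units in CF-1 and 30496 in the hybrid, the hCG-treated ovary 18485, the tumour 11481 and the luteoma 9427. The cystic and hCG-treated arrays thus stood above the other 6, while the tumour and luteoma lay within the wild-type range. The same order was held by 1.9% of the probe sets tested. Over the 9 conditions the log2 values of Hbb-b2 and Alas2 correlated at 0.70.

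Against its own wild type, Hbb-b2 had log2 differences of 1.84 for the hybrid cystic ovary and 1.24 for the CF-1 cystic one, -0.12 in the tumour pair, 0.29 in the luteoma pair and 0.57 for the hCG-treated ovary. As deposited, without scaling, the cystic ovaries were 2.18-fold (CF-1) and 2.30-fold (hybrid) above their wild types. The order across all 9 arrays did not hold there, because the CF-1 wild type of 5 months, at 13951 units, then stood just above the CF-1 cystic ovary at 13673.

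Hba-a1 on chip B read 17449.6 and 16855 units in the CF-1 wild types and 16996 and 18577 in the hybrid ones, a narrow range with a mean of 17469 ± 781 (SD, n = 4). It read 24040.4 units in the CF-1 cystic, 47516 in the hybrid cystic and 38313 in the hCG-treated ovary, against 14588 in the tumour and 10591 in the luteoma. The first 3 stood above all other arrays and the last 2 below all others. As deposited neither order held. Wild types at 19759.5, 18825 and 18609 units stood above the CF-1 cystic ovary at 17944. The tumour, at 17848 units, stood above the CF-1 wild type of 2 months at 14056. The pair differences were 0.46, 1.48, -0.21 and -0.81 on the log2 scale for the CF-1 cystic, hybrid cystic, tumour and luteoma pairs, and 1.18 for the hCG-treated ovary.

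Part of this alpha globin profile was shared by bright probe sets at large. Among the named genes of chip B, those with profiles most like it over the 9 conditions were Rpl27a, Cox4i1, Rps12, Gm15772 and Eef1a1, at Pearson correlations of 0.969, 0.969, 0.959, 0.958 and 0.957. Most of them encode parts of the ribosome, a translation factor or a subunit of the respiratory chain. All values of one array share its scaling, so these correlations carry no p-value. Over the 50 brightest chip B probe sets, of which Hba-a1 was 1, the median log2 difference was 0.01 in the CF-1 cystic, 0.67 in the hybrid cystic, -0.11 in the tumour, -0.30 in the luteoma and 0.58 in the hCG-treated comparison. Less those medians, Hba-a1 differed by 0.45, 0.81, -0.10, -0.51 and 0.61 in the same order. Hbb-b2, less bright, kept 1.16 (hybrid) and 1.22 (CF-1) in the cystic pairs, -0.01 in the tumour, 0.60 in the luteoma and -0.01 in the hCG-treated ovary. Under quantile normalization, which evens out bright values, the hybrid cystic difference of Hba-a1 was 0.56 and that of Hbb-b2 1.29.

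**Figure D2:**
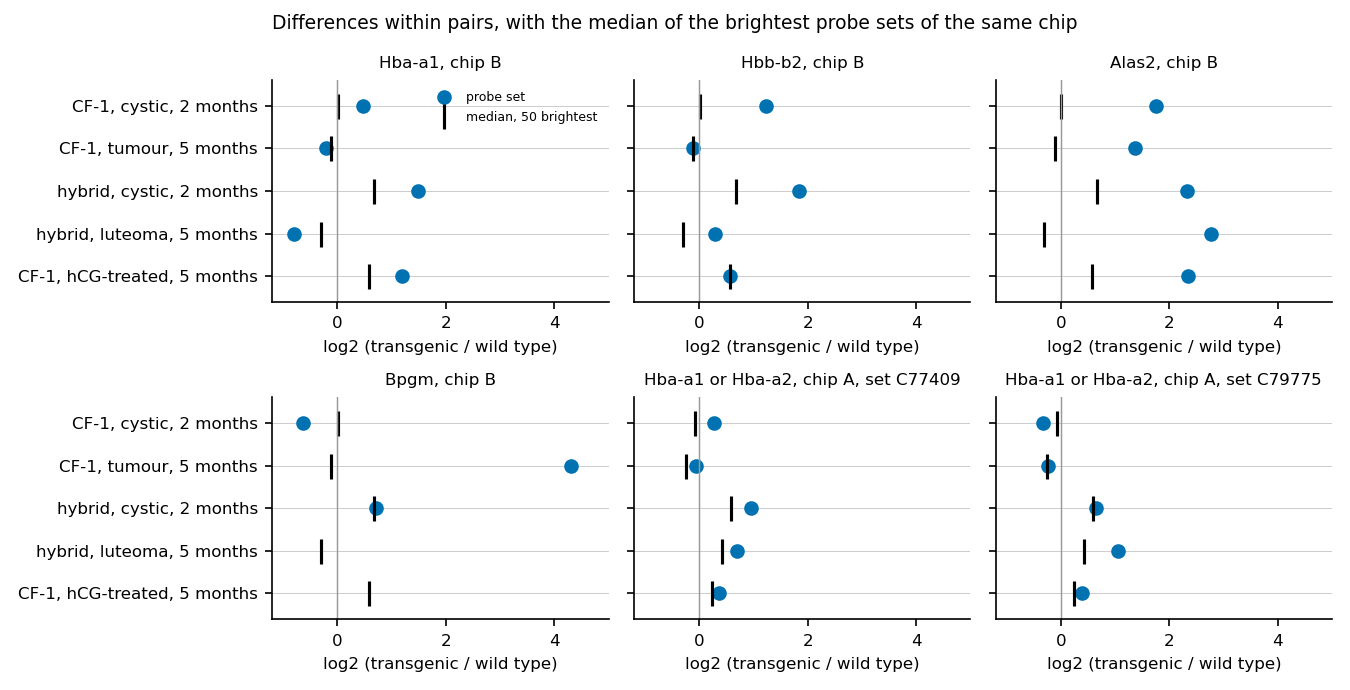
Log2 difference between each transgenic ovary and the wild type of its strain and age (blue points) for the 6 probe sets tested, with the median of the 50 brightest probe sets of the same chip (black bars). For Hbb-b2 the cystic points at 1.24 and 1.84 lie well beyond the bars at 0.01 and 0.67. For the chip A alpha globin sets points and bars lie nearer, at most 0.63 apart, in the luteoma pair of the second set. No point is drawn where both arrays were under the floor. Bpgm in the tumour is drawn at 4.30, with its wild type at the floor, against a lower bound of 3.30 at the detection limit.

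The chip A probe sets for Hba-a1 or Hba-a2 did not repeat the cystic pattern in full. The first, C77409_rc_f_at, read 17793 and 29439 units in the CF-1 and hybrid cystic ovaries against 14668 and 15131 in their wild types, but 22494 in the CF-1 wild type of 5 months, which lay above the CF-1 cystic ovary. Scaling decided this order: under quantile normalization and as deposited all 5 transgenic arrays stood above all 4 wild types in this set, narrowly, the lowest at 19643 and 18987 units against a highest wild type of 19288 and 17985.5. Its pair differences were 0.28, 0.96, -0.06 and 0.71 on the log2 scale in the CF-1 cystic, hybrid cystic, tumour and luteoma pairs. The second, C79775_rc_f_at, read 12960 units in the CF-1 cystic ovary and 16167 in its wild type, the opposite direction from chip B, and 22792 against 14617 in the hybrid. Its largest pair difference was that of the luteoma, 24239 against 11683 units or 1.05, where chip B had the lowest alpha globin of all. As deposited, its hybrid cystic pair stood at 17219 and 17375 units, with no excess in the cystic ovary.

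The alpha globin probe sets therefore disagreed between chips on the luteoma, and in the CF-1 cystic pair the second chip A set went against the others. Over the 9 conditions the log2 values of the 2 chip A sets correlated at 0.87 with each other and at 0.55 and 0.23 with Hba-a1 of chip B, while Hba-a1 and Hbb-b2 of chip B correlated at 0.82. The chip A alpha globin sets, the bright Hba-a1 set and Hbb-b2 carry the suffix that Affymetrix gave to sets whose probes match a gene family. Alpha globin copies, and the beta globin genes, which RefSeq names Hbb-bs and Hbb-bt in C57BL/6 mice, cannot be told apart by them, and the hybrid and CF-1 strains may carry different beta globin versions. Among the globins of the embryo, all 3 probe sets of Hbb-y were below 0 on every array. Hbb-bh1, a beta-like embryonic chain, read 359 to 832 units in the wild types and was highest in the hybrid cystic ovary, at 1217, and the hCG-treated one, at 900.3. Its differences were -0.26 and 0.85 in the CF-1 and hybrid cystic pairs, 0.48 in the tumour, -1.07 in the luteoma and 1.33 in the hCG-treated ovary. Hba-x, the alpha-like embryonic chain, read 278 to 759 units, with 0.96 in the hybrid cystic and -0.27 in the CF-1 cystic pair.

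The 2-fold rule, with the brighter array at the detection limit, was used for the pairs. In the CF-1 cystic pair 2.95% of all probe sets tested passed it upward, and among the 6 red cell sets Hbb-b2 and Alas2 did. In the hybrid cystic pair 4.35% passed and 3 of 6 did, Hba-a1 of chip B, Hbb-b2 and Alas2. In the tumour pair, at 5.04%, they were Alas2 and Bpgm. In the luteoma pair, at 6.57%, Alas2 and the second chip A alpha globin set passed, and in the hCG-treated ovary, at 7.38%, Hba-a1 of chip B and Alas2. Both cystic arrays lay above all 4 wild types for Hba-a1 of chip B, Hbb-b2 and Alas2, an order found in 9.52% of the probe sets tested. The genes were chosen for such contrasts, so the counts describe them and support nothing.

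Strain and age were not themselves used in the choice. They were tested with limma's additive fit on the 8 untreated arrays, with Benjamini-Hochberg adjustment over all 6408 probe sets. The cystic and tumour arrays, on which the genes were picked, enter both terms. For the red cell sets these p-values are therefore not independent of the choice. No red cell probe set passed at 0.05, against 0.0312% of all probe sets for strain and 0.0156% for age. At an unadjusted p under 0.05 the red cell sets that passed were none for strain, where 7.88% of all did, and Alas2 for age, where 19.5% did. Alas2 differed by 0.52 (SE 0.25) between hybrid and CF-1, with a limma adjusted p = 0.67, and by -0.61 (SE 0.25) between 5 and 2 months, with a limma adjusted p = 0.243. It was lower at 5 months in the transgenic ovaries of both strains. The wild types, all under the detection limit, have no firm order. Hba-a1 of chip B differed by -0.70 (SE 0.36) with age, at a limma adjusted p = 0.317, and Hbb-b2 by -0.46 (SE 0.36), at 0.484. For the other red cell sets the limma adjusted p for age ran from 0.606 to 0.971 and for strain, over all 6, from 0.67 to 0.993. The fitted genotype differences, given without a test, were 2.06 (SE 0.25) for Alas2, 0.81 (SE 0.36) for Hbb-b2, 0.23 (SE 0.36) for Hba-a1 of chip B and 1.09 (SE 0.76) for Bpgm. In that limma fit 0% of all probe sets passed for genotype after adjustment, and 10%, 642 probe sets, had an unadjusted p under 0.05. With trend and robust variances 8 passed, and with the values as deposited 34.

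Other genes of the red cell lineage were dim or overlapped between the genotypes. Gata1, the master transcription factor of red cell and platelet precursors, stayed under the floor on all arrays, from -180.4 to 74.3 units, as did Epb42, a protein of the red cell skeleton, from -5.90 to 27.5. Klf1, a factor that drives beta globin, read 713 to 1022 units in the wild types and 869 to 1258 in the 5 transgenic ovaries. Ank1, ankyrin of the red cell skeleton, read 786 to 1017 and 874 to 1148 units, and Slc4a1, the band 3 anion exchanger, 586 to 1264 and 618 to 1338. In all 3 genes the groups overlapped, although each was higher in 3 of 4 pairs (Slc4a1 in 2 of 4 as deposited). Their differences in those pairs ran from -0.18 to 0.61 on the log2 scale, and in the hCG-treated ovary Slc4a1 was lower, at -1.03. The part of red cell precursors in the Alas2 result was not tested.

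**Figure D3:**
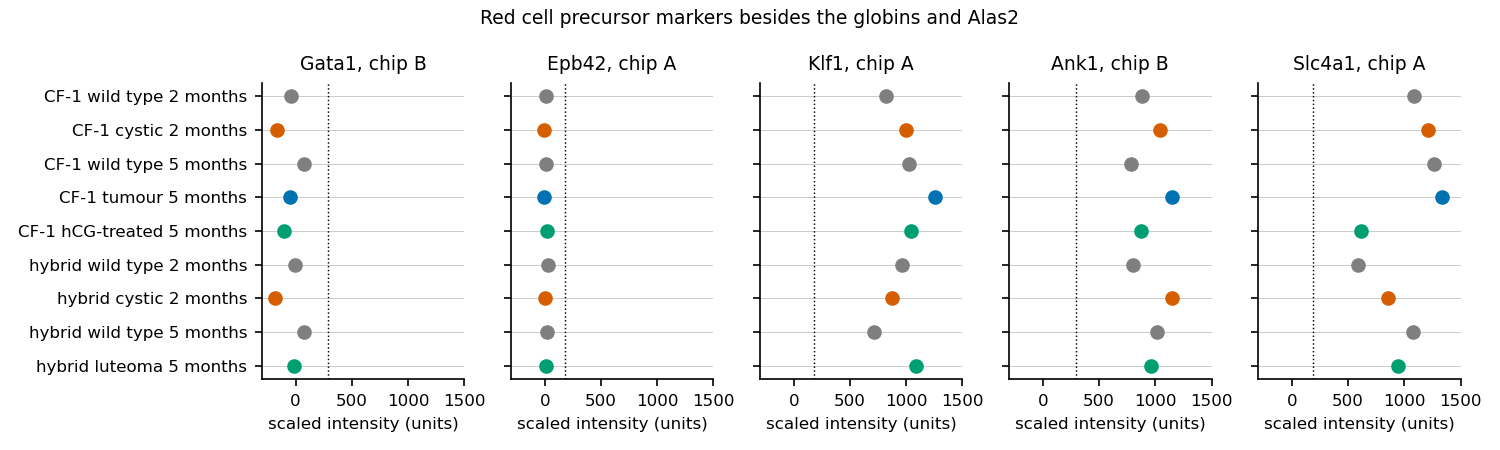
Scaled intensity in units (horizontal axis, linear) of 5 red cell precursor markers in the 9 conditions, coloured as wild type (grey), cystic (orange), tumour (blue) and luteoma or hCG-treated (green), with the floor dotted. Gata1 and Epb42 stay under the floor in every sample, and Klf1, Ank1 and Slc4a1 lie above it with wild-type and transgenic values mixed.

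Counted by list, 0 of the 4 membrane and skeleton genes tested (Add1, Ank1, Slc4a1 and Stom) and 0 of the 5 regulators tested passed limma's genotype test, which 0% of all probe sets passed, so these counts say nothing particular to the lists. Within the membrane list the median pair difference was 0.29 for the hybrid cystic ovary, 0.19 for the CF-1 cystic one, 0.01 for the tumour and -0.13 for the luteoma, against medians of all probe sets between -0.07 and 0.01. The hybrid cystic value was -0.35 as deposited. Among the regulators the medians were 0.26 and -0.15 in the CF-1 and hybrid cystic pairs, 0.30 in the tumour and -0.15 in the luteoma, the hybrid ones being -0.80 (cystic) and -0.75 (luteoma) as deposited. Zfpm1, a partner of Gata1, was at most 218 units in the wild types, under the detection limit. It reached the limit in the tumour (851 units), the luteoma (483) and the hCG-treated ovary (457), but in neither cystic ovary (-229 and 289.6). Its genotype difference was 0.95, with a limma adjusted p = 0.47. Neutrophil and platelet genes, which blood would also bring, were mostly dim. Gp5 of platelets was under the floor on every array, and of the 12 neutrophil genes on the chips only Lcn2, Camp and Ngp were tested, with sums of 2039 to 2626 units in the wild types and 720 to 2463 in the untreated transgenic ovaries. The hCG-treated ovary had the highest sum, 3235 units. Camp, a peptide of neutrophil granules, was highest in 2 ovaries that were also high in chip B globin, the hybrid cystic (1447 units against 584 in its wild type) and the hCG-treated one (1149 against 335). Lcn2, another neutrophil gene, was lower in those 2 ovaries than in the same wild types, at 709.8 against 884 and 1548 against 1724. Ngp was lower there too, so in both comparisons Camp was the only 1 of the 3 tested neutrophil genes that was higher. The part of neutrophils in the globin levels was not tested.

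Heme synthesis beside Alas2 was mixed. Of 9 other tested genes of heme synthesis and iron uptake, 6, 4, 6 and 5 were higher in the CF-1 cystic, hybrid cystic, tumour and luteoma pairs, with median differences of 0.07, -0.05, 0.03 and 0.03. As deposited, the hybrid medians were -0.70 for the cystic ovary, with 0 of 9 higher, and -0.57 for the luteoma, with 3 of 9 higher. The hCG-treated ovary had 6 of 9 higher and a median of 0.40. Alas1 was the exception nearest to Alas2, with the second highest correlation to it over the 9 conditions, 0.842, after Aldh2, an aldehyde dehydrogenase, at 0.906. It read 8099 units in the CF-1 cystic ovary against 5241 in its wild type, 7902 against 6313 in the hybrid cystic pair and 9638 against 4142 in the luteoma pair. In the tumour it read 4810.0 units, below its wild type at 5784, and in the hCG-treated ovary 8217. As deposited, the hybrid cystic difference turned to -0.31. Its genotype difference was 0.48 with a limma adjusted p = 0.582. Fkbp1a, Wnt4 and Csnk1g2 followed with correlations of 0.827, 0.821 and 0.816, and Wnt4, a signal of the ovary, was itself under the floor in several samples. Alad and Urod, later steps of the pathway, read 1860 to 4002 and 1417 to 2347 units with no such pattern.

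Heme breakdown was measured too. Hmox1, heme oxygenase, which cells induce when they take up heme or are stressed, read 3077 units against 1791 in the CF-1 cystic pair, 3116 against 1797 in the hybrid cystic pair, 4269 against 3258 in the tumour pair and 2908 against 2099 in the luteoma pair. It was higher in 4 of 4 pairs, as were 9.21% of all probe sets tested, and its genotype difference of 0.61 did not pass, at a limma adjusted p = 0.406. As deposited it was higher in 3 of 4 pairs. The hCG-treated ovary read 2849 units, below its wild type. Summed over 12 tested macrophage genes, the levels of the cells that recycle heme overlapped between wild types (31594 to 95570 units) and untreated transgenic ovaries (32760 to 63455). In the hCG-treated ovary 11 of the 12 were lower than in its wild type, and in the tumour, set against the same array, 12 of 12. That array, the CF-1 wild type of 5 months, had the highest sum, 95570 units. The hCG-treated ovary summed to 52285 units, above the remaining wild types at 31594 to 40176.

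The ferritin chains Ftl1 and Fth1 store iron that heme gives up. Ftl1 read 43564 units in the hybrid cystic ovary against 20151 in its wild type, but 27024 against 27210.3 in the CF-1 pair. Fth1 read 31163 against 19565 units in the hybrid and 22952 against 22264 in CF-1. Ferritin was thus higher in 1 of the cystic ovaries, the one whose bright probe sets were higher as a whole. The 7 tested genes of heme and iron recycling, both chains included, summed to 85967 units in the hCG-treated and 84357 in the hybrid cystic ovary. They summed to 50683.5 to 61090 in the tumour, luteoma and CF-1 cystic ovary, and to 45148 to 61434 in the wild types.

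Against paired wild types, vessel markers were higher beside Alas2 in the cystic ovaries and luteoma but not in the tumour or the hCG-treated ovary. The 7 endothelial genes tested summed to 7434 to 13186 units in the wild types and 8534 to 22492 in the untreated transgenic ovaries, highest in the luteoma and lowest, among the transgenic, in the tumour. Their median pair difference was 0.39, 0.43 and 0.98 in the CF-1 cystic, hybrid cystic and luteoma pairs, with 7, 5 and 6 of 7 genes higher, and -0.57 in the tumour pair with 7 of 7 lower. In the hCG-treated ovary, where Alas2 stood 2.35 higher, 3 of 7 were higher and the median was -0.32 (0.03 as deposited). The sum in that ovary, 13324 units, was just above that of its wild type, 13186, which was the highest among the wild types. Eng, an endothelial co-receptor, read 11920 units in the luteoma against 3315 in its wild type. The hybrid cystic median was -0.23 as deposited. Globin of chip B did not follow the vessels in the luteoma. The part of vessels in the Alas2 result was not tested.

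Bpgm behaved unlike the other 3 genes. It read 5718 units in the tumour. The only other array to reach the detection limit was the younger CF-1 wild type, at 686. The CF-1 and hybrid cystic ovaries read 440 and 477 units, and the remaining 5 arrays lay under the floor, at -227 and -29.9 units in the older CF-1 and hybrid wild types, 208 in the younger hybrid one, -143 in the luteoma and -38.5 in the hCG-treated ovary. The tumour was 8.34-fold above the next array and at least 9.83-fold above its own wild type, taken at the detection limit. Within its array 4.52% of probe sets were brighter than Bpgm in the tumour, against 25.3% to 94.6% in the other samples.

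This gap of Bpgm was the largest of all probe sets tested. Only 18 of them, 0.281%, stood at least 3-fold above every other array in the tumour, and as this is how the gene was noticed it is not support. The last inside the 3-fold limit was Fbln2 at 3.12-fold and the first outside Fam53a at 2.92-fold. The gap was 8.25-fold under quantile normalization, 8.10-fold under median scaling and 12.7-fold as deposited. In the same tumour array Hba-a1 and Hbb-b2 of chip B differed from their wild type by -0.21 and -0.12 and Alas2 by 1.37. Beside it, the hCG-treated ovary of the same strain and age had higher Hba-a1, Hbb-b2 and Alas2 than the tumour and Bpgm under the floor. Bpgm correlated with the other red cell sets over the 9 conditions at -0.18 to 0.10.

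**Figure D4:**
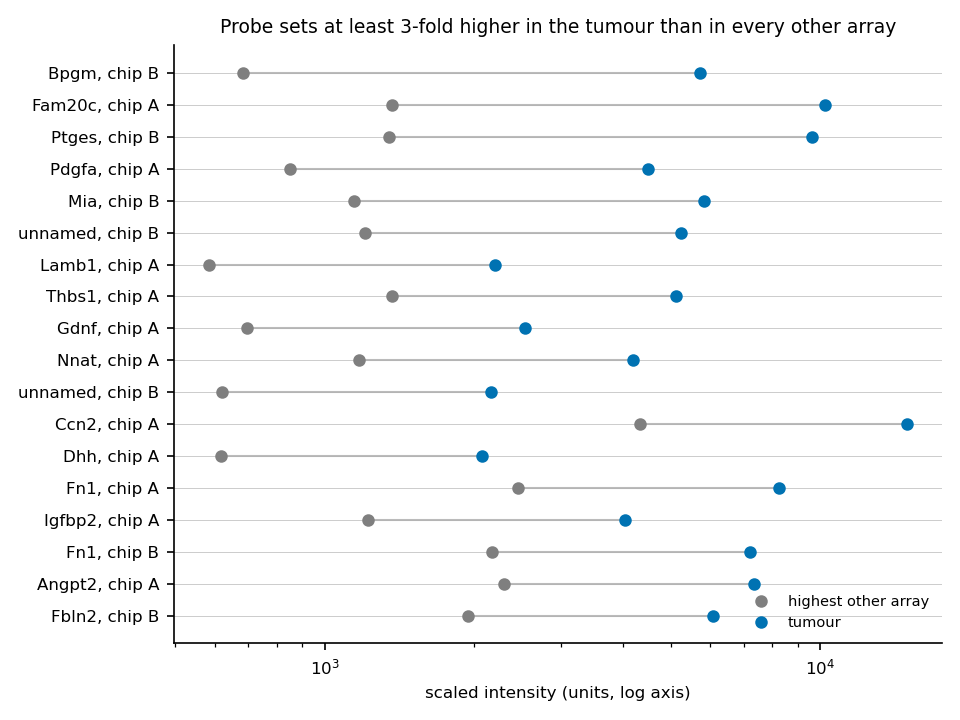
The 18 probe sets that stood at least 3-fold higher in the tumour than in every other array, with the tumour value (blue) and the highest other array (grey) as scaled intensity in units on a log axis, ordered by the gap. Bpgm has the widest gap, from 686 to 5718 units.

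Among the named genes of chip B the profiles most like that of Bpgm were those of Ptges, Fn1, Tpst1, Npdc1 and Pygb. Their correlations over 9 conditions were 0.938, 0.928, 0.925, 0.915 and 0.907. Bpgm was set to the floor on 5 of the 9 arrays and was brightest in the tumour, on which it was picked. These correlations therefore rest mainly on the tumour array. Ptges, a prostaglandin E synthase, reached 9639 units there and 1349 in the next sample. Fn1, fibronectin of the matrix, read 7205 units on this chip, where no other sample passed 2181. Pygb, a glycogen phosphorylase that feeds glycolysis, was at 4088 units in the tumour and 1073 to 1774 in the rest.

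The enzymes around Bpgm moved little by comparison. Of 14 tested genes of glycolysis and its branch, 11 were higher and 2 lower in the tumour than in its wild type. Their median log2 difference was 0.34, against 0.01 over all probe sets tested. Of these genes 0 reached 2-fold in either direction, and 5.04% of all probe sets tested did so upward. With so few genes, nothing is read from that 0. As deposited, 13 were higher, with a median of 0.66. Gapdh, a central step, read 19639 units in the tumour and 19455 in its wild type. Aldoa, an aldolase, read 16700.3 and 17202, Hk1, a hexokinase, 11632 and 12389.5, and Pkm, pyruvate kinase, 12528 and 11926. The bright enzymes of the main path were therefore close to level in this pair. Pgam1, the phosphoglycerate mutase of glycolysis and a relative of Bpgm, read 3980.4 against 2484 units. Minpp1, a phosphatase that also acts on 2,3-bisphosphoglycerate, read 3448 against 1935. These last 2 genes were singled out after their values were seen.

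The hypoxia list held genes known to respond to low oxygen and also regulators such as Hif1a. In the tumour pair 11 of its 13 genes were higher and 2 lower, with a median of 0.55. Of the 13, 2 reached 2-fold upward, as did 5.04% of all probe sets tested in this pair. Hif1a, the oxygen-regulated transcription factor, read 7882 units in the tumour, and its next highest sample was the luteoma at 4238. P4ha1, a collagen prolyl hydroxylase, read 3632 units, followed by the CF-1 cystic ovary at 2091. Higd1a and Ddit4, both induced by low oxygen, read 4370.1 against 3675 and 2514 against 1879 units in the tumour pair, and Higd1a was higher still in the luteoma, at 4986. In the cystic and luteoma pairs the list's median lay between -0.02 and 0.09, but as deposited it was -0.68 for the hybrid cystic ovary and -0.57 for the luteoma. With a single tumour array there was no test of these differences, and the part of low oxygen in the Bpgm level was not tested.

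**Figure D5:**
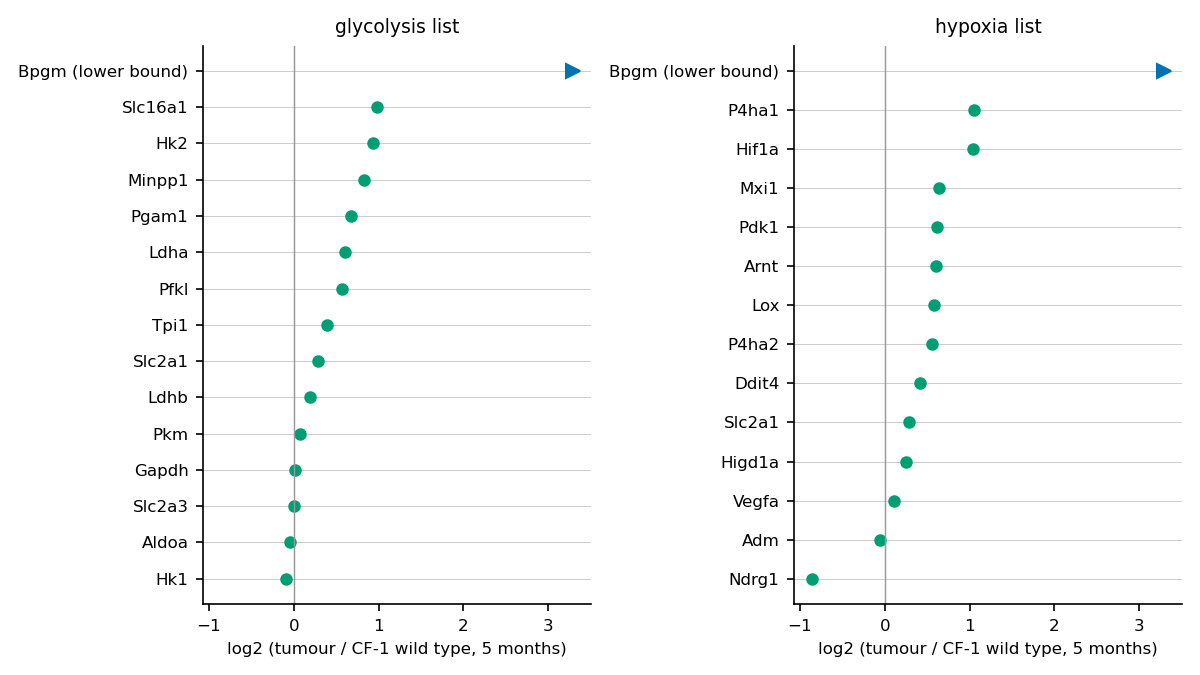
Log2 difference between the tumour and the CF-1 wild type of 5 months (horizontal axis) for 14 genes of glycolysis and 13 genes of the hypoxia list (green points), 1 array on each side, with Bpgm as a triangle at its lower bound of 3.30 (wild type at the detection limit). The glycolysis genes lie between -0.09 and 0.99 and the hypoxia genes between -0.86 and 1.05.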

How the data were processed

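The authors deposited intensities, 1 value per probe set and array. The software and scaling behind them are unstated here. Genes were named through the platform annotation, updated with RefSeq symbols, and 76 control or shared probe sets per chip were left out. Each array was scaled to its chip's average trimmed mean (values from percentile 2 to 98). For the floor, each array gave whichever was greater, its percentile 25 or the absolute value of its percentile 5, and the middle array's value was taken. Limma 3.58.1 in R 4.3.3 fitted genotype, strain and age additively to the 8 untreated arrays (4 residual degrees of freedom), after a check on simulated data. Without replicate animals, its p-values rest on how well those terms add up. Pairs have 1 array a side and no test.

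The members and gene lists were chosen with earlier results of these data known, and the comparison with the 50 brightest probe sets after seeing the data. Named were the members, the up to 4 brightest genes of a list, genes past a test or size rule, and the 5 most alike profiles per member, besides fixed cell markers. Other scalings, floors, filters and left-out arrays were tried.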

Additional observations from a re-analysis of the deposited data

Results flagged for a closer look

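Among the 4 untreated transgenic arrays Bpgm stood far higher in the tumour than in the rest, with a gap to the next of 0.894 of their whole range. Bpgm had been chosen for its level in the tumour, so this gap is a description and no test.

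Some Hba-a1 probe sets differed from their wild types in opposite directions by age or by strain, and these contrasts were not tested. Chip B's tested set was higher at the younger age, by 1.48 (hybrid) and 0.46 (CF-1) on the log2 scale, and lower at the older age, at -0.81 (luteoma) and -0.21 (tumour). For the second chip A set the split followed strain: CF-1 gave -0.32 (cystic) and -0.24 (tumour), the hybrid 0.64 (cystic) and 1.05 (luteoma).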

How the results depend on the processing

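No strain or age difference of a red cell set passed the threshold under any of the settings tried, which says little on stability where 2 and 1 of 6408 probe sets passed. Of 100 genotype differences 99 moved by less than the spread, and of 175 pair differences 159 did. The spread was the residual SD of the probe set, as wide as 1.46 for Bpgm, or a fixed value for the set not tested. Filters and variance settings cannot move a log2 difference, nor can a floor where both values are bright. These counts therefore say little on stability. Counts over all probe sets were less steady. For genotype, 0 passed, 8 with trend and robust variances, 34 as deposited, and 0 to 7 without 1 array (7 without the tumour, 2 and 1 without the CF-1 wild types of 2 and 5 months). For strain, 2 passed, 0 with the floor doubled, 1 with a floor of 20 units, 6 with no filter, 1 with a filter on 5 arrays, 1 with trend and robust variances, 6 as deposited, and 0 to 1 without 1 array. For age, 1 passed, 0 under quantile normalization, with the floor doubled, with a filter on 5 arrays or with trend and robust variances, 3 with no filter, 18 as deposited, and 0 to 254 without 1 array (254 without the hybrid wild type of 5 months). A 3-fold in place of a 2-fold rule left 79 of 368 probe sets in the CF-1 cystic pair, 283 of 778 in the tumour, 143 of 563 in the hybrid cystic, 246 of 951 in the luteoma and 233 of 920 in the hCG-treated comparison. The causes were not tested. With the 4 pairs of one strain and age as a block (3 residual degrees of freedom), 0 passed for genotype in limma, and 622 had an unadjusted p under 0.05. That block and the unscaled values were added after seeing the data.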
